A study of Mus musculus with 3 samples.

Results

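Complement is a cascade of blood and tissue proteins that tags microbes and cell debris, and it starts when C1q, a recognition protein built from the products of C1qa, C1qb and C1qc, binds a surface and activates the serine proteases C1r and C1s. Macrophages settle in the mouse heart before birth, take up debris by way of scavenger, lectin and Fc receptors, and are a main tissue source of C1q. They depend on the receptor Csf1r for survival and carry surface proteins such as Adgre1 (the F4/80 antigen, written Emr1 in the files), Cx3cr1 and Mrc1. The genes described here are 10 of the 20031 named genes on the array: C1rl, the complement genes C1qa, C1qb and C1qc, and the macrophage genes Csf1r, Cd68, Mrc1, Adgre1, Cx3cr1 and Fcgr3. C1rl, which encodes a C1r-like serine protease, was chosen from these same measurements for a strongly rising probe, and its values are therefore a description with no test. The other 9 genes were chosen by name for their roles, to ask whether complement and macrophage transcripts followed it. Of the 41174 gene probes on each array, 15 read these 10 genes, and 14 of the 15, with at least 1 for every gene, were bright enough to be tested.

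The samples were heart RNA from C57BL/6 mouse embryos at embryonic day 15.5, from crosses between heterozygous Lrrc10 knockout parents. Each of 3 two-colour arrays, the 3 biological replicates, compared a pool of 2 hearts labelled Lrrc10-/- in the red dye Cy5 with a pool of 2 wild-type (Lrrc10+/+) littermate hearts in the green dye Cy3. The Lrrc10 product is a protein of cardiomyocytes that is built from leucine-rich repeats. The dyes were never exchanged, so genotype and dye cannot be told apart, and the labels of the wild-type channel hold an adult age beside the embryonic one.

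The targeted gene went against its label. On replicates 1, 2 and 3, Lrrc10 had log2 ratios of Cy5 over Cy3 of 3.99, 4.78 and 4.45 (mean 4.41 ± 0.40, SD, n = 3; limma adjusted p = 0.000386), so the transcript was higher in the channel labelled Lrrc10-/- on every array, and whether the probe lies inside the deleted sequence is not given in the sources used here. All directions below are therefore those of the channel labelled Lrrc10-/-, and each would turn if the channel labels were exchanged. All 10 cardiomyocyte markers examined were well above background in both channels of all arrays. The share of gene probes well above background ranged from 63.5% to 93.2% over the channels and was lowest on replicate 3 (63.5% in Cy5 and 68.9% in Cy3). Replicate 2 stood apart in liver transcripts, which are set beside the complement results below.

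C1rl was higher in Cy5 on all 3 arrays. Its processed signal, the brightness after the scanner software's own background and dye correction, was 1245 (Cy5) against 702 (Cy3) on replicate 1, 524 against 225 on replicate 2 and 1388 against 300.5 on replicate 3. The channels overlapped across arrays, since Cy5 of replicate 2 lay below Cy3 of replicate 1, but within every array Cy5 was the brighter channel. The normalised log2 ratios of 1.18, 1.31 and 1.49 averaged 1.33 ± 0.16 (SD, n = 3), or 2.51-fold. Log2 ratios here carry an added 50 units of intensity in each channel, which draws the ratio of dim spots towards 0. Only 100 of the 28326 tested probes (0.353%) had a higher mean ratio.

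The probe sequences are given for their base content and were not matched to transcripts. The C1rl probe (A_51_P251367) lies on the plus strand at chr6:124457165-124458407 in mm9, a span of 1243 bases for a 60-base probe, so its sequence is not continuous in the genome. The probes of C1qa (A_51_P181451, minus strand, chr4:136452409-136452468) and C1qb (A_51_P351860, minus strand, chr4:136436578-136436637) are shown beside it as the complement probes that are about as rich in cytosine as the C1rl probe. Of the Csf1r probes, whose sequences are not shown, 2 are about as rich and had positive ratios on all 3 arrays. Capitals mark the cytosines.
C1rl: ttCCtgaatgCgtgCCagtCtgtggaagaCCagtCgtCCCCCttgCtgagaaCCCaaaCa
C1qa: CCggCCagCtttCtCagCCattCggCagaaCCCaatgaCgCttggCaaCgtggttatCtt
C1qb: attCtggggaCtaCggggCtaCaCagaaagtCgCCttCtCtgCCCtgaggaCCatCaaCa

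The C1rl and C1qa probes each hold 19 cytosines and the C1qb probe 18, against a median of 12 over tested probes. A probe with 19 or more was uncommon (5.86% of tested probes). The share of probes called higher in Cy5 rose with the number of cytosines, from 0.412% of probes with up to 11 to 1.13% with 12 to 14, 2.69% with 15 to 18 and 5% with 19 or more. The median log2 ratio of the last group was 0.13. After each array's ratios were centred on probes of the same cytosine count, a setting chosen after seeing the data, the C1rl mean was 1.27. The part of base content in the C1rl value was not tested further.

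**Figure D1:**
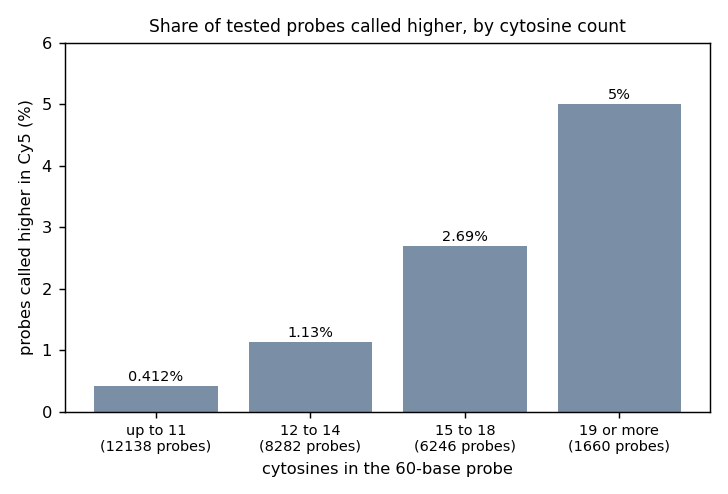
Percentage of tested probes called higher in Cy5 (limma adjusted p under 0.05) on the vertical axis, in 4 groups of probes by the number of cytosines in the 60-base probe, with the number of probes under each bar. The share goes from 0.412% in the group with the fewest cytosines to 5% in the group with 19 or more, which holds the C1rl and C1qa probes.

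None of the other 9 genes followed C1rl past the threshold of an adjusted p of 0.05. By limma, 0 of the 9 genes and 0 of their 13 tested probes were called higher, and 0 were called lower. Over all tested probes 1.39% were called higher and 0.00353% lower, and over the 15712 tested genes, each represented by its brightest tested probe, 1.6% were called higher and 0.00636% lower, so a count of 0 among 9 genes is near that background. Before adjustment, 2 of the 13 probes had p under 0.05 with a higher ratio, both of Csf1r, and 0 with a lower one, beside 9.06% and 4.26% of all tested probes. By genes, the count was 1 higher and 0 lower of 9, beside 10.2% and 4.86% of all tested genes. The median log2 ratio of the 9 genes was -0.03, and that of all tested genes was 0.02. Array by array, the median of the 9 was 0.04, -0.19 and 0.09. The ratio of C1rl lay above those of all 9 genes on replicates 1 and 2 and above those of 8 of the 9 on replicate 3, the exception being Csf1r; as C1rl was chosen for its rise, this is a description only. A test over whole hearts cannot tell fewer macrophages apart from less RNA per macrophage.

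**Figure D2:**
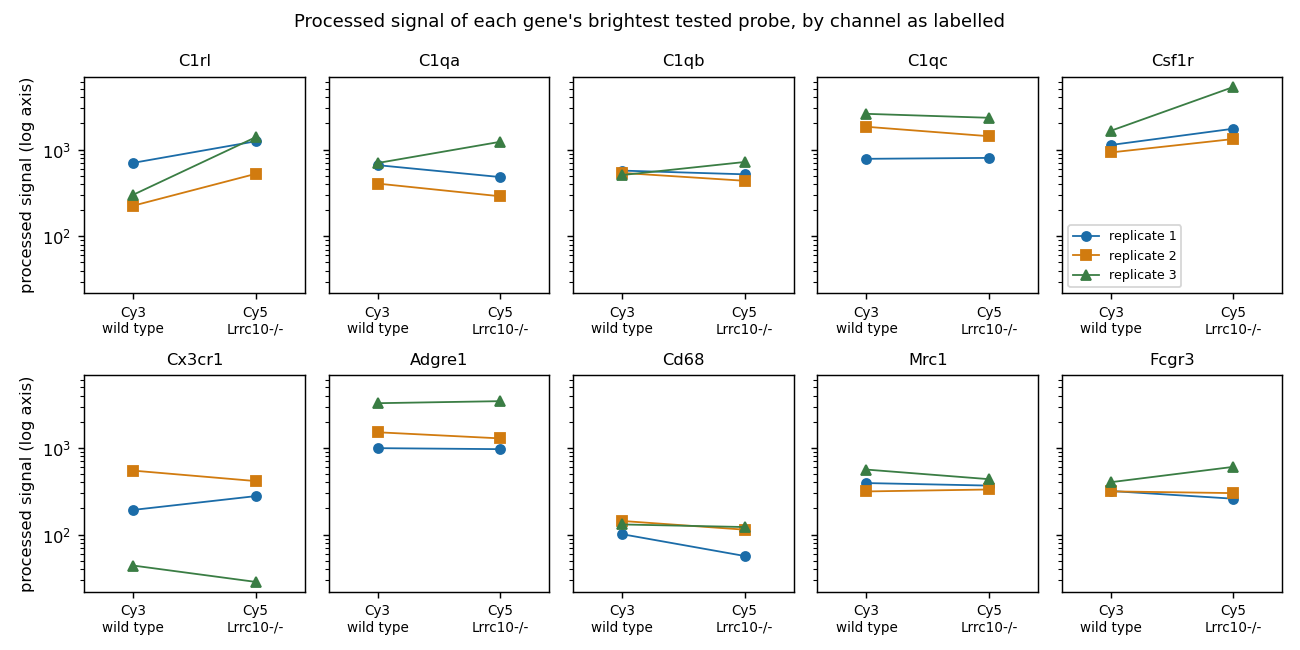
Processed signal (log axis) in the Cy3 channel, labelled wild type, and the Cy5 channel, labelled Lrrc10-/-, for the brightest tested probe of each of the 10 genes, with 1 line per replicate array. The C1rl and Csf1r lines rise on all 3 arrays, the Cd68 lines fall on all 3, and the lines of the other genes go both ways.

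The C1q genes encode the A, B and C chains of the recognition protein, and their probes lie close together on chromosome 4. For C1qa, the processed signal in Cy5 was 482, 289 and 1228, and in Cy3 it was 661, 405 and 699, in the order of the replicates. It was thus lower in Cy5 on replicates 1 and 2 and higher on replicate 3. The log2 ratios were -0.51, -0.58 and 0.53, with a mean of -0.19 ± 0.62 (SD, n = 3; limma 95% interval -0.70 to 0.33; adjusted p = 0.759). The mean depended on which arrays were kept, and was -0.02 without replicate 1 and 0.01 without replicate 2. Without replicate 3 it was -0.54 and C1qa was called lower (limma adjusted p = 0.0302). That fit to the remaining arrays called 1539 probes higher and 248 lower.

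C1qb went the same way on each array. Its signal was 518, 436 and 718 in Cy5 and 572, 538 and 508 in Cy3, which gave log2 ratios of -0.26, -0.39 and 0.28 (mean -0.13 ± 0.36, SD, n = 3; limma adjusted p = 0.772). C1qc did not share that order. Its signal was 801, 1426 and 2326 in Cy5 and 782, 1832.5 and 2584 in Cy3, and its log2 ratios were 0.20, -0.19 and -0.09 (mean -0.03 ± 0.20, SD, n = 3; limma adjusted p = 0.949).

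Csf1r, the receptor for the growth factors Csf1 and Il34 that maintain macrophages, came nearest to C1rl. Its brightest probe (A_51_P365885) had signals of 1741, 1324 and 5277 in Cy5 and 1129, 926 and 1648 in Cy3. Cy5 was brighter on every array, by most on replicate 3. The log2 ratios were 0.66, 0.53 and 1.51, with a mean of 0.90 ± 0.53 (SD, n = 3; limma 95% interval 0.44 to 1.36), and the gene missed the threshold (limma adjusted p = 0.1002). Without replicate 3 the mean was lower, at 0.60, yet the gene was called higher (limma adjusted p = 0.0186) in a fit that called 1539 probes higher and 248 lower, against 395 and 1 with all arrays. The cause was not tested.

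The 3 probes of Csf1r disagreed. A second probe (A_52_P570471) gave log2 ratios of 0.75, 0.12 and 1.54 (mean 0.81 ± 0.71, SD, n = 3; limma adjusted p = 0.224). The remaining probe (A_52_P602091), which spans 361 bases of the genome, gave -0.09, 0.03 and -0.09 (mean -0.05 ± 0.07, SD, n = 3; limma adjusted p = 0.885). The probes with the positive means hold 18 and 20 cytosines and the other holds 13. With the cytosine-centred ratios the means were 0.85, 0.70 and -0.04. The part of base content in the disagreement was not tested. Which probe reads the receptor's transcript best was not tested.

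**Figure D3:**
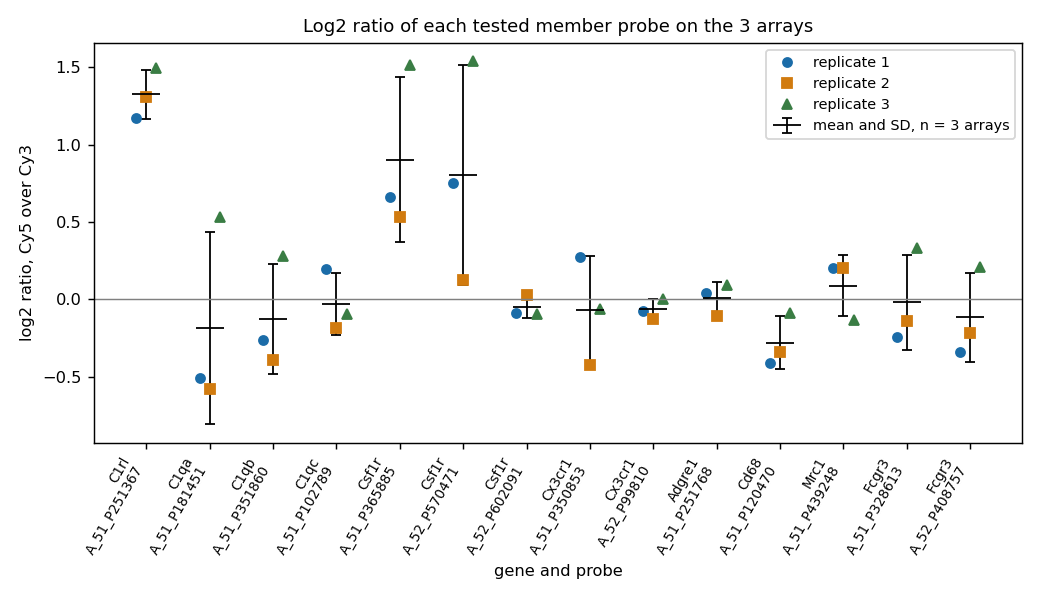
Log2 ratio of Cy5 over Cy3 for each of the 14 tested probes of the 10 genes, with 1 point per replicate array, a bar at the mean and a whisker of 1 SD (n = 3 arrays). C1rl lies between 1.18 and 1.49, Csf1r reaches 1.51 and 1.54 on replicate 3 through 2 of its 3 probes, and the means of the other 11 probes lie between -0.28 and 0.09.

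Adgre1, an adhesion receptor and the classical surface marker of mouse macrophages, had ratios close to 0. Its signal was 968, 1288 and 3464 in Cy5 and 994, 1516 and 3281 in Cy3, and the log2 ratios of 0.04, -0.11 and 0.09 had a mean of 0.01 ± 0.10 (SD, n = 3; limma 95% interval -0.27 to 0.28; adjusted p = 0.983). Its other probe (A_52_P364727) was not well above background in either channel of replicates 2 and 3 and was not tested.

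Cx3cr1, the receptor for the chemokine Cx3cl1, was read by 2 probes whose signals ran opposite ways across arrays. The brighter probe (A_51_P350853) had signals of 278, 414 and 28.4 in Cy5 and 192, 547 and 43.9 in Cy3. Both channels were lowest on replicate 3, where Cy5 was not well above background. The other probe (A_52_P99810) had signals of 36.0, 39.9 and 169 in Cy5 and 52.4, 43.3 and 172 in Cy3, and both channels were highest on replicate 3. The log2 ratios nevertheless had nearly equal means, -0.07 ± 0.35 for the brighter probe and -0.07 ± 0.06 for the other (SD, n = 3; limma adjusted p = 0.879 and 0.847).

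Cd68, a glycoprotein of macrophage endosomes and lysosomes, was the only member lower in Cy5 on all 3 arrays. Its signal was 56.6, 114 and 122 in Cy5 and 101, 144 and 131 in Cy3. The log2 ratios were -0.41, -0.34 and -0.09, and the mean of -0.28 ± 0.17 (SD, n = 3; limma 95% interval -0.57 to 0.01) did not pass the test (limma adjusted p = 0.392). Mrc1, the mannose receptor of tissue-resident macrophages, had signals of 367, 331 and 436 in Cy5 and 393, 315 and 562 in Cy3. Its normalised log2 ratios were 0.20, 0.20 and -0.14 (mean 0.09 ± 0.20, SD, n = 3; limma adjusted p = 0.807).

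Fcgr3, an activating receptor for the Fc part of IgG, was, like C1qa and C1qb, below 0 on replicates 1 and 2 and above 0 on replicate 3. The brighter probe (A_51_P328613) had signals of 259, 301 and 605 in Cy5 and 318, 315 and 402 in Cy3, and log2 ratios of -0.25, -0.14 and 0.33 (mean -0.02 ± 0.31, SD, n = 3; limma adjusted p = 0.972). The second probe (A_52_P408757) gave -0.34, -0.22 and 0.21 (mean -0.12 ± 0.29, SD, n = 3; limma adjusted p = 0.766). Fcgr3 and Fcgr2b share a near-identical extracellular part, so a probe there could read both. The brightest of 3 tested Fcgr2b probes had a mean of 0.05 (limma adjusted p = 0.894), and the lowest mean among the 3 was -0.25.

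Likeness to C1rl was measured as the Euclidean distance between the 3 log2 ratios of a gene and those of C1rl, over 15711 other tested genes. The nearest were 1700083H02Rik, Olfr123, Cd3g, Kcnt1 and Padi4, at distances of 0.163 to 0.208. None belonged to the complement or macrophage lists. Those lists held only 14, 14 and 26 of the tested genes, so their absence from so few places says nothing about them. Of the 9 other members, Csf1r was nearest (distance 0.93, place 243) and the rest took places from 5677 (Mrc1) to 14315 (Cd68).

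C1rl lies on chromosome 6 beside C1ra and C1rb, the mouse genes for the protease C1r, and its neighbours did not move with it past the threshold. C1ra had log2 ratios of -0.26, -0.10 and 0.19 (mean -0.06; limma adjusted p = 0.885). C1rb had 0.74, 0.23 and 0.99 (mean 0.66; limma adjusted p = 0.149), and was above 0 on every array. C1ra and C1rb are close copies of each other, so their probes may not separate them. None of the other 6 tested neighbours, from Clec4d to Emg1, was called. Over all tested genes 1.6% were called higher and 0.00636% lower, so no call among so few is near that share. The means of the 6 ran from -0.39 (Pex5) to 0.58 (Emg1).

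None of the remaining complement genes tested passed the threshold. Of 22 further components, all on the array, 14 were tested and 0 were called in either direction by limma. Over all tested genes 1.6% were called higher and 0.00636% lower, so 0 among 14 is near that share. At an unadjusted p under 0.05, 1 component was higher and 0 were lower, beside 10.2% and 4.86% of all tested genes. The median log2 ratio of the 14 components was -0.03. The list holds C1ra but not C1rb, whose mean of 0.66 is given above. Among the 14 components the highest means were those of Cfp (properdin, which stabilises the alternative pathway's convertase) at 0.36, C4a at 0.28 and Colec11 at 0.14. The lowest were those of Cfb (factor B of the alternative pathway) at -0.40, C3 (the central component) at -0.17 and C8g at -0.09. C4a and its near-identical copy C4b, at -0.09, may not be separated by their probes.

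Of 17 regulators and receptors of complement, 14 were tested and 0 were called, with 2 higher and 1 lower at an unadjusted p under 0.05. Among all tested genes limma called 1.6% higher and 0.00636% lower, so finding 0 calls in 14 genes is close to that background. The counts of 2 and 1 before adjustment stand beside shares of 10.2% and 4.86% for all tested genes. The regulators and receptors had a median log2 ratio of -0.04. Itgam, the alpha chain of complement receptor CR3 and a marker of myeloid cells, had ratios of 0.83, 0.25 and 0.62 (mean 0.57; limma adjusted p = 0.156). C4bp, an inhibitor that binds C4b, had a mean of 0.45 (limma adjusted p = 0.257), and C3ar1, the receptor for C3a, of 0.35 (limma adjusted p = 0.383). At the low end were Clu (clusterin, an inhibitor of the terminal complex) at -0.35, Cd55 (a convertase inhibitor) at -0.21 and Serping1 (the inhibitor of C1r and C1s) at -0.20.

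Of 28 further macrophage genes 26 were tested, and 0 were called in either direction. Over all tested genes 1.6% were called higher and 0.00636% lower, so 0 among 26 is near that share. Before adjustment, 3 had p under 0.05 with a higher and 1 with a lower ratio, beside 10.2% and 4.86% of all tested genes. The median log2 ratio of the 26 was 0.01. Maf, a transcription factor of resident macrophages that other cells express too, had ratios of 0.73, 0.53 and 1.05 (mean 0.77; limma adjusted p = 0.0512) by its brightest probe, but its 3 tested probes had means from -0.23 to 0.77. Next came Aif1, an actin-binding protein of macrophages, at 0.38 by the brighter and -0.15 by the other of its 2 probes, and Pf4, a chemokine also made by platelets, at 0.36. The lowest were Stab1, a scavenger receptor shared with some endothelia, at -0.61 (limma adjusted p = 0.172) by the brighter and 0.05 by the other of its 2 probes, Lyz2 (lysozyme) at -0.27 and F13a1 (coagulation factor XIII A chain) at -0.25. Without replicate 3, Maf was called higher at 0.63 (limma adjusted p = 0.0142), in a fit that called 1539 of 28110 probes higher and 248 lower. Without replicate 1 or 2, 0 macrophage genes were called. Those fits called only 2 of 28090 and 1 of 28290 probes higher and 0 lower, so that count says nothing about the list. The summed processed signal of the 26 probes in Cy5 was 0.807 times that in Cy3 on replicate 2 and 1.004 times on each of the other arrays. Lyz2 weighed most in the replicate 2 sums, with 21657 of 55630 in Cy5 and 31843 of 68930 in Cy3. The median log2 ratio on that array was -0.06, with 12 of the 26 genes above 0. The ligands of the member receptors were not called either, with means of -0.04 for Csf1, -0.05 for Il34 and -0.27 for Cx3cl1.

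**Figure D4:**
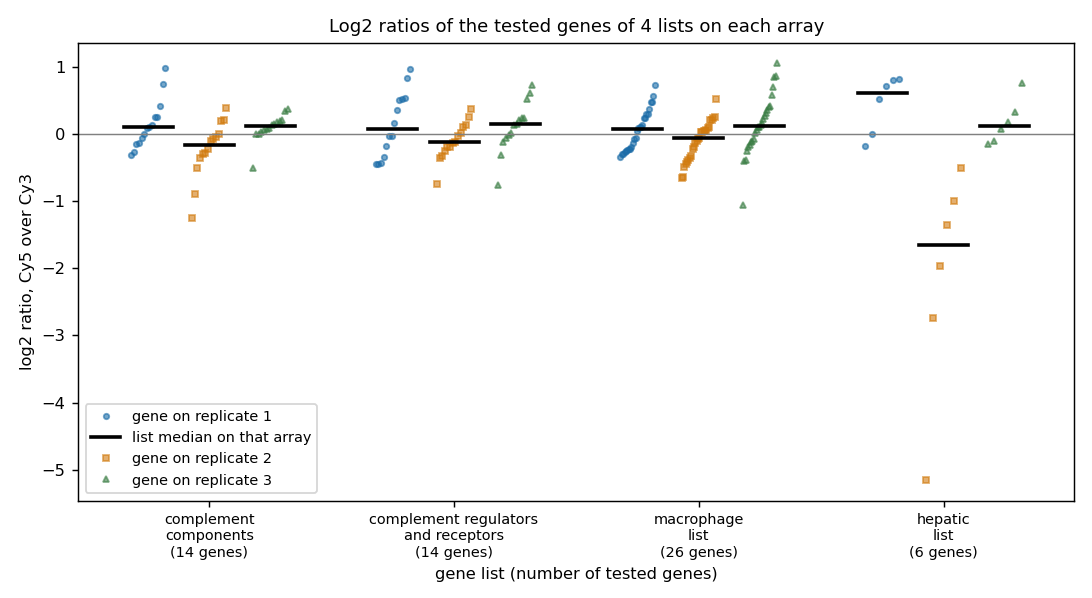
Log2 ratio of Cy5 over Cy3 for each tested gene of 4 lists, by replicate array, with a black bar at the list's median on that array. The complement and macrophage medians lie between -0.16 and 0.15 on every array, while the hepatic median is -1.66 on replicate 2 and above 0 on the other arrays.

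Liver transcripts differed between the pools of replicate 2, where the medians of both complement lists were lowest. The median log2 ratio of 6 tested hepatic genes of a list of 10 was 0.62, -1.66 and 0.13 on replicates 1, 2 and 3, and the ratio of their summed signals was 1.67, 0.117 and 1.36. On replicate 2, Afp (alpha-fetoprotein) was at -5.15 and Alb (albumin) at -2.74. The complement components, many of them made in liver, had medians of 0.10, -0.16 and 0.12. On replicate 2 the lowest were Cfb at -1.25 and C3 at -0.89. On that array 4 of the 14 components were above 0, the highest being C4a at 0.40. Replicate 2 also held the lowest array median of the macrophage (-0.06), mast cell (-0.18) and platelet (-0.13) lists. The same held for the ligands of the member receptors (-0.25) and the 9 members (-0.19). Replicate 2 held the highest median of the endothelial (0.14) and fibroblast (0.04) lists, and the neutrophil list was lowest on replicate 3 (-0.15). The part of liver RNA in these values was not tested. Without replicate 2 the component median was 0.09, that of the regulators and receptors 0.06 and that of the macrophage list 0.09. That fit called only 1 of 28290 probes higher and 0 lower, so the 0 genes called in each list say nothing about them. In the same fit C1qa, C1qb and C1qc had means of 0.01, 0.01 and 0.05. The C1rl ratio was 1.31 on replicate 2 and its mean was 1.33 without it.

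Cd3g, a chain of the T cell receptor complex and among the genes nearest to C1rl, had ratios of 1.13, 1.24 and 1.65 and was called higher (mean 1.34; limma adjusted p = 0.0173). Among other lymphocyte markers, not called, Cd3e, another chain of that complex, had a mean of 0.23, Cd79b, a chain of the B cell receptor, of 0.06 and Nkg7 of -0.03. The part of lymphocyte RNA in the member values was not tested.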

How the data were processed

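Heart RNA was hybridised to 3 two-colour Agilent arrays with 60-base probes. The deposited scanner files hold intensities of spots. Per their headers, Agilent Feature Extraction 9.1.3.1 made them for replicate 1, with local background, and version 10.7.3.1 for replicates 2 and 3. The authors' software gave processed intensities and log10 ratios, and the deposited series table holds those log10 ratios. From the deposited mean intensities, Cy5 over Cy3 was taken as log2 ratios with limma 3.58.1 in R 4.3.3 (normexp on local background, offset 50, loess within array). Control spots and non-uniform spots were left out and spots of a probe averaged. The 28326 probes well above background in Cy5 or in Cy3 on all 3 arrays were tested against 0 (lmFit, eBayes, two-sided, Benjamini-Hochberg, threshold 0.05). The method was tested on simulated data that held no dye, array or base-content effect. The number of arrays limits the precision.

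Symbols were updated through a RefSeq table of the GRCm38.p6 assembly, which named 33417 probes; positions are those of the files (mm9), and exon annotation was not used here. A gene was represented by its brightest tested probe. The named genes are the members, list genes called, the 3 highest and 3 lowest of each complement and macrophage list, defining genes of other cell lists, Lrrc10, the 5 genes nearest to C1rl and its chromosomal neighbours, which were added after values were seen. Of the genes this rule picks, 1 is not reported here. The members and gene lists were chosen with earlier results of these data known. Alternatives covered background correction, normalization, filters, tests, scanner and left-out replicates.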

Additional observations from a re-analysis of the deposited data

How the results depend on the processing

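No paired analysis was possible because no second group of arrays shares the replicate numbers; the main test already sets the pools of each array against each other. Settings were 17 alternatives and a cytosine-content correction chosen after seeing the data. In all 18, C1rl stayed positive (1.23 to 1.45), Csf1r positive (0.55 to 1.09) and Cd68 negative (-0.42 to -0.21), and the medians of the 9 members (-0.08 to 0.04), the components (-0.06 to 0.09), the regulators and receptors (-0.08 to 0.06) and the macrophage list (-0.03 to 0.09) moved by less than the SD of their array medians. Members called higher, and members called lower, ranged from 0 to 1 over the left-out replicates (Csf1r and C1qa without replicate 3) and were 0 otherwise.

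Members with means near 0 changed sign, and apart from C1qa without replicate 3 none of them was called. Without background correction Fcgr3 was 0.025. With processed signals, and equally with the series table, C1qb was 0.019, Mrc1 -0.13, Adgre1 -0.065 and Fcgr3 0.076. Adgre1 was -0.053 with median centring and -0.013 with arrayWeights, and Fcgr3 was 0.062 with ratios scaled between arrays. With scanner and software version as a block C1qc was 0.028 and Cx3cr1 0.015. Over the left-out replicates C1qa ranged from -0.54 to 0.011, C1qb from -0.33 to 0.0077, C1qc from -0.14 to 0.052, Cx3cr1 from -0.25 to 0.11, Adgre1 from -0.032 to 0.067 and Fcgr3 from -0.19 to 0.10. Lrrc10 stayed positive but missed the threshold with processed signals or the series table (5.21), scaled ratios (4.62) and the methods' t-test (4.41; 0 of the 9 members had an unadjusted p under 0.05). The cause was not tested.

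Calls over all probes, 395 higher and 1 lower, fell to 1 or 0 without background correction, with processed signals, the series table, scaled ratios, the methods' t-test or the scanner block, and to 2 and 1 without replicates 1 and 2. They were 145 and 0 without a filter on dim probes, 555 and 14 with arrayWeights, 461 and 3 with an intensity trend, and 1539 and 248 without replicate 3. A count of 0 members called is thus read from 3 arrays with a threshold that few probes pass. For dim probes, such as those of Cd68 and Cx3cr1, the offset limits the size of ratio that can be seen.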

Other observations

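Among markers of the other cell types a heart sample can hold, lymphocytes aside, 0 genes were called in either direction by limma. Over all tested genes 1.6% were called higher and 0.00636% lower, so 0 in lists this small is near that share. The medians were -0.04 for 7 neutrophil, 0.14 for 4 mast cell, -0.09 for 4 platelet, 0.02 for 6 endothelial and -0.09 for 8 fibroblast genes. At an unadjusted p under 0.05, 1 mast cell and 1 platelet gene were higher, and 1 erythroid, 1 endothelial and 2 fibroblast genes were lower. The shares over all tested genes were 10.2% higher and 4.86% lower. Gp1bb, a chain of the platelet receptor for von Willebrand factor, came closest to the threshold, with log2 ratios of 0.45, 0.89 and 0.96 (mean 0.77; limma adjusted p = 0.0528). Most of the 10 cardiomyocyte probes, and those of the adult globins, were saturated in both channels on at least 2 arrays, so no ratio of theirs is given, and no median of the cardiomyocyte or erythroid list.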
